A study of Homo sapiens with 7 samples.

Results

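The ERBB receptor family consists of 4 genes, EGFR, ERBB2, ERBB3 and ERBB4, which were selected by name from the 26175 genes in the RNA-seq table of T47D/A1-2 cells. Start-seq calls were added where a gene TSS lay inside a gene's locus widened by 1000 nts, which selected 8 of the 10391 gene TSSs. T47D/A1-2 was derived from T47D, a human breast cancer cell line, by overexpression of the rat glucocorticoid receptor and integration of an MMTV luciferase reporter, and the sample labels name the cells T-47D. All libraries are taken here as sharing 1 growth condition, with no treated group. In it, cells grown with 10% FBS spent 24 hours or longer in 5% serum stripped with charcoal dextran. The paper describes this culture only under its Start-seq methods. RNA-seq was performed in 3 replicates, which the authors merged before estimating 1 FPKM value for each gene, a fragment count scaled to transcript length and library size. Start-seq, which maps the 5’ ends of short capped nascent RNA, was performed in 2 replicates, and the calls come from replicate 1. The values below therefore have no error between replicates and no test, and the depth behind each value is unknown. In this bulk measurement, fewer expressing cells and less RNA per cell cannot be told apart.

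ERBB receptors are cell surface tyrosine kinases that pair with each other when a ligand binds. EGFR binds EGF, TGFα, amphiregulin and related ligands, whereas ERBB3 and ERBB4 bind neuregulins. ERBB2 has no known ligand and is a preferred partner of the other receptors, and ERBB3 has little kinase activity of its own but carries docking sites for PI3K. In the breast, the family takes part in gland development, and amplification of ERBB2 defines a clinical class of breast cancer.

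All 10 luminal epithelial markers examined had an FPKM of at least 1, with a range from 1.90 for TFF1 to 1142 for KRT8. Of 6 basal or myoepithelial markers only ACTA2 reached 1, at 3.20, and KRT5 and KRT14, keratins that define basal cells, were listed at 0. The stromal markers reached 1 only for COL1A1, at 8.82, of 4 examined. Among leukocyte markers, PTPRC had an FPKM of 0.0208 and CD3E was listed at 0. Both endothelial markers were below 1, with CDH5 listed at 0.

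Transcription initiation was called at all 4 receptor genes. Of the 8 gene TSSs selected, 6 lay nearest to an annotated start of a family member on its strand, namely 1 for EGFR, 2 for ERBB2, 2 for ERBB3 and 1 for ERBB4. Over 18012 protein-coding genes, 51.0% had a called gene TSS, and 4.44% of those with a call had more than 1. The other 2 calls belonged to neighbours, PGAP3 beside ERBB2 and PA2G4 beside ERBB3. Only 3 of the 8 calls lay inside the loci as listed, because the EGFR and ERBB4 calls, the upstream ERBB3 call and those of both neighbours lay outside them. The PA2G4 call was 7 nts inside the limit set by the widening and the upstream ERBB3 call 82 nts inside, and widening by 5000 nts added no call. The sequences of 5 of the 6 family gene TSSs, from 100 nts upstream to the first 20 nts transcribed, are given because they show how differently these promoters are built. Capitals mark the base before the TSS together with the TSS base, and each match to GGGCGG (GC box), CCAAT, GCCNNNGGC (a pair of AP-2 half-sites) or CCGGAAGT (an ETS core), searched on both strands, so that a match on the other strand appears as its reverse complement. The sequences were read from GRCh37, which has the chromosome sequences of hg19.
EGFR (chr7:55086610-55086729, plus strand): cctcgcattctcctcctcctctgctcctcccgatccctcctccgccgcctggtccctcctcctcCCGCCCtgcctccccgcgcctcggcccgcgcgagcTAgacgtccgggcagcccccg
ERBB2 upstream call (chr17:37844296-37844415, plus strand): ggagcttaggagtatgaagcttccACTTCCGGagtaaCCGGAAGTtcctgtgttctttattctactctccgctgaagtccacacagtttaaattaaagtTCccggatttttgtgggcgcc
ERBB2 downstream call (chr17:37856089-37856208, plus strand): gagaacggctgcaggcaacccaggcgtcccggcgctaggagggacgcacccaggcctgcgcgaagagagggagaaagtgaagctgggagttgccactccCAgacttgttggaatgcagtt
ERBB3 upstream call (chr12:56472791-56472910, plus strand): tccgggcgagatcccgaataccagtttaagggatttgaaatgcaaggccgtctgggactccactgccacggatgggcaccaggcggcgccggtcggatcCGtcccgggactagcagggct
ERBB4 (chr2:213403876-213403995, minus strand): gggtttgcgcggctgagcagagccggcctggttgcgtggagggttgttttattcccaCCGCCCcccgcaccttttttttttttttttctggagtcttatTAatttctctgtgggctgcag

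None of the 6 gene TSSs had TATAW (TATAA or TATAT) starting between -35 and -24 on the gene's strand, which was found at 3.0% of all gene TSSs. Initiation at a purine preceded by a pyrimidine was seen at 5 of them, against 66.1% of all gene TSSs, and the upstream ERBB2 call had TC at these bases. These bases were CA at the downstream ERBB2 and downstream ERBB3 calls, against 30.3% of all gene TSSs. A GC box lay within 100 nts upstream at EGFR and ERBB4 and at none of the other 4 calls, whereas 50.2% of all gene TSSs had one. Neither CCAAT nor the AP-2 pair was found within 100 nts upstream of any of the 6, against 18.7% and 14.5% of all gene TSSs. Within 250 nts upstream, EGFR had the AP-2 pair at -152 and at -142, and ERBB4 had CCAAT at -164. These matches describe letters in the windows and were not tested as binding sites.

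The antisense calls differed among the receptors. Over all gene TSSs, an upstream antisense TSS (uaTSS), searched up to 1000 nts upstream, was called at 53.1%, and a downstream antisense TSS (daTSS), searched up to 2000 nts downstream, at 28.4%. Of the 6 family gene TSSs, 1 had only a uaTSS, 2 had only a daTSS and 3 had neither, and no family gene TSS had both. Among gene TSSs without another gene TSS within 5000 nts, which include those of EGFR and ERBB4 and the downstream ERBB2 call, 58.5% had a uaTSS and 32.9% a daTSS. Over all gene TSSs, the shares of these classes were 35.6% with only a uaTSS, 11% with only a daTSS, 35.9% with neither and 17.5% with both. The 30 nts around each of the 3 antisense TSSs of the family follow, with the base before the TSS and the TSS base in capitals, because they show where antisense transcription starts at these promoters.
ERBB2 daTSS (chr17:37856678-37856707, minus strand): ccctgagcgtctcgactgtCCacaacttcg
ERBB3 uaTSS (chr12:56473752-56473781, minus strand): ccccgagcgtgccacgcccCGcggtcccgc
ERBB4 daTSS (chr2:213403477-213403506, plus strand): cgtgtgggagtgtgctcggTGtgtgcgctt

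**Figure D1:**
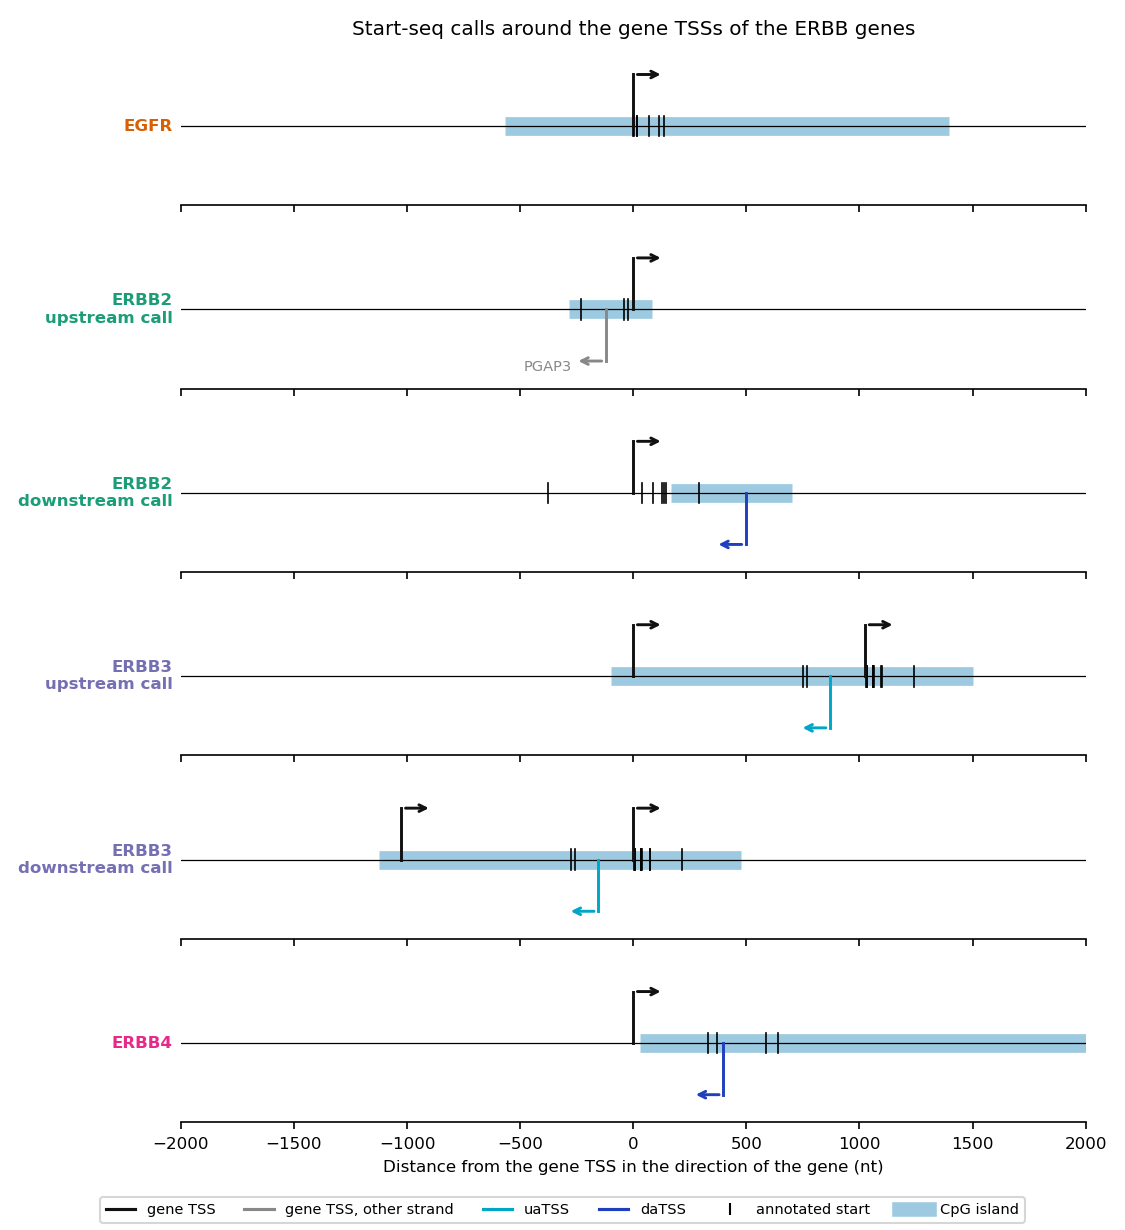
Start-seq calls within 2000 nts of the 6 gene TSSs of the ERBB genes, plotted as distance in nts in the direction of the gene. Arrows above each line are calls on the strand of the gene and arrows below it are calls on the other strand, short ticks are annotated transcript starts and blue bars are CpG islands. The daTSSs of ERBB2 and ERBB4 lie 498 and 398 nts downstream inside islands that begin after the gene TSS, the uaTSS of ERBB3 lies 155 nts upstream, and PGAP3 starts 121 nts upstream of the upstream ERBB2 call.

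EGFR (ENSG00000146648), the receptor for EGF, had 1 gene TSS at position 55086710 on the plus strand of chromosome 7, exactly at an annotated EGFR start and in an exon of both transcripts that span it. The call lay 15 nts upstream of the first base of the listed locus and had neither antisense TSS. The nearest other called gene TSS was 259784 nts away. The 100 nts around the call were 83.0% GC, the highest of the 6 family gene TSSs and higher than at 97.8% of all gene TSSs, with ties shared evenly. A CpG island of 1964 bp covered the gene TSS, from 568 nts upstream to 1395 nts downstream, with 72.4% GC. The single GC box in the printed window begins at -36 on the other strand.

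ERBB2 (ENSG00000141736), the receptor without a known ligand, had gene TSSs at 37844396 and 37856189 on the plus strand of chromosome 17, 11793 nts apart. The upstream call lay 24 nts downstream of the nearest annotated ERBB2 start and in an exon of all 3 annotated transcripts that span it. The downstream call lay 40 nts upstream of the nearest annotated start and within introns of the 4 transcripts that span it. FPKM values are given per gene, so the share of ERBB2 transcripts from each start is unknown.

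The upstream ERBB2 call pointed away from the gene TSS of PGAP3, a gene of the GPI-anchor remodeling pathway. The PGAP3 call, at 37844275 on the minus strand, was 121 nts upstream. Such a divergent neighbour, with its gene TSS up to 1000 nts upstream, was present at 11.5% of all gene TSSs, with a median distance of 267 nts over the 1198 gene TSSs that had one. A uaTSS was called at 16.2% of these 1198 and at 57.9% of the others, and neither the ERBB2 call nor the PGAP3 call had one. Between the divergent starts lie a pair of CCGGAAGT matches in opposite orientation, on the other strand at -76 and on the strand of ERBB2 at -63. At least 1 match within 100 nts upstream was found at 5.47% of all gene TSSs. The search for ETS cores, CCAAT and AP-2 pairs was chosen after the calls were seen. GC content at the upstream call was 53.0% in 100 nts, and the island over both starts was short, at 369 bp.

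The downstream ERBB2 call carried the daTSS, at 37856687 on the minus strand, 498 nts downstream. That distance was close to the median of 507 nts over the 2956 daTSSs. The daTSS lay in an intron in all 11 ERBB2 transcripts that span it. No CpG island covered the gene TSS, whereas 82.8% of all gene TSSs lay in an island. An island of 538 bp instead began 165 nts downstream and ended 702 nts downstream, so that the daTSS lay inside it, 204 nts before its downstream edge. GC content in 100 nts was 62% at the gene TSS and 75% at the daTSS. None of the motifs searched was found within 250 nts upstream of this gene TSS.

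ERBB3 (ENSG00000065361), the neuregulin receptor with little kinase activity, had gene TSSs at 56472891 and 56473916 on the plus strand of chromosome 12, 1025 nts apart. The downstream call lay 5 nts upstream of the nearest annotated ERBB3 start, within introns of the 4 transcripts that span it. It carried the only uaTSS of the family, at 56473761, 155 nts upstream, against a median of 200 nts over the 5519 uaTSSs. The upstream call lay 750 nts from the nearest annotated start, farther than 98.4% of the 10366 gene TSSs with an annotated start within 1000 nts, and the deposited calls carry no gene name, so that its assignment to ERBB3 rests on this distance alone. It lay in an intron of the 1 annotated ERBB3 transcript that spans it. The authors merged overlapping search windows of a gene and called 1 gene TSS per window. Whether both of these calls came from windows of ERBB3 is therefore unknown.

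An island of 1601 bp covered both ERBB3 gene TSSs and the uaTSS between them, which lay 870 nts downstream of the upstream call. GC content in 100 nts was 72.0% at the upstream call and 64.0% at the downstream call.

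PA2G4, which encodes the ERBB3-binding protein EBP1, starts immediately downstream of ERBB3 on the same strand. Its gene TSS was called at 56498284, 37 nts upstream of the nearest annotated PA2G4 start and 24368 nts from the downstream ERBB3 call. It had both a uaTSS, 108 nts upstream, and a daTSS, 1884 nts downstream. The daTSS distance was longer than 99.3% of all daTSS distances. The FPKM value of PA2G4 was 128.

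ERBB4 (ENSG00000178568), the neuregulin receptor with an active kinase, had 1 gene TSS at 213403895 on the minus strand of chromosome 2. The call lay 330 nts upstream of the nearest annotated start, and outside the annotated transcripts. This offset was larger than at 91.6% of gene TSSs with an annotated start within 1000 nts, whose median offset was 10 nts. The daTSS was called at 213403497 on the plus strand, 398 nts downstream. It lay past the annotated starts of 2 ERBB4 transcripts, in an exon of both and in the coding sequence of neither.

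The 100 nts around the ERBB4 gene TSS were 51.0% GC, the lowest of the 6. An island of 2198 bp began 28 nts downstream of the gene TSS and contained the daTSS 370 nts from its upstream edge. A GC box on the other strand began at -43 and another on the strand of the gene at -105.

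**Figure D2:**
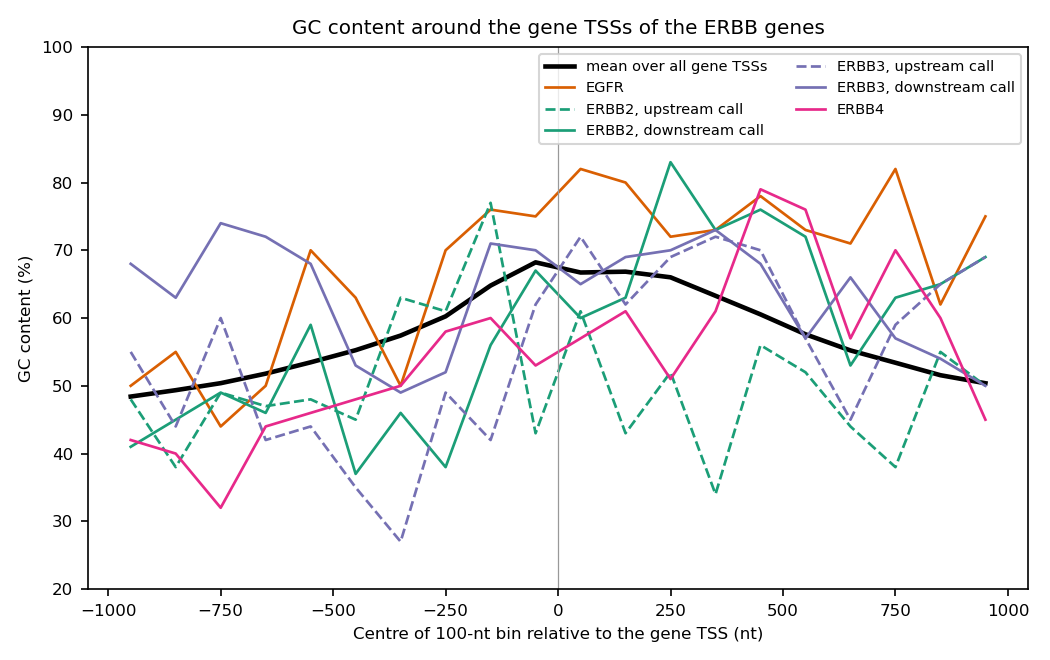
GC content in percent in 100-nt bins from 1000 nts upstream to 1000 nts downstream of the 6 gene TSSs of the ERBB genes, with the mean over all 10391 gene TSSs in black and the upstream calls of ERBB2 and ERBB3 dashed. EGFR lies above the mean in every bin downstream of its TSS, the downstream ERBB2 call and ERBB4 reach their highest values downstream of the TSS, and the upstream ERBB2 call lies below the mean in most bins downstream.

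The transcript levels fell into a high and a low pair. ERBB3 had the highest FPKM of the family, 259, with 177 of the 26175 genes higher. ERBB2 followed with an FPKM of 124, with 669 genes higher. EGFR had an FPKM of 1.28 and ERBB4 an FPKM of 1.07, with 11915 and 12180 genes higher. All 4 were at or above an FPKM of 1, as were 46.9% of all genes in the table and 59.9% of protein-coding genes. Of the summed FPKM of the family, 385, ERBB3 contributed 67.1%, ERBB2 32.3%, EGFR 0.332% and ERBB4 0.277%.

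The FPKM value of ERBB3 was 2.08 times that of ERBB2, a difference of 1.05 in log2(FPKM + 0.1). ERBB2 was 97.3 times EGFR, a difference of 6.5 on the same scale. EGFR and ERBB4 were close together, with a ratio of 1.2 and a difference of 0.24 in log2(FPKM + 0.1). Without values per replicate, it cannot be said whether neighbours in this order differ beyond their spread. The percentile of ERBB3 was between 98.3 and 99.3, and that of ERBB2 between 93.8 and 97.4, whichever genes they were ranked against. In contrast, EGFR ranked at percentile 54.5 among all genes but at 7.21 among genes with a called gene TSS, and ERBB4 at 53.5 and 6.30. Among protein-coding genes with an FPKM from 1 to below 2, the range that holds EGFR and ERBB4, a gene TSS was called for 49.3%.

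The level and the antisense class did not run in parallel in this family. A daTSS without a uaTSS was called at ERBB2 and at ERBB4, whose FPKM values differed by 117 times. The ERBB4 daTSS is downstream of the called gene TSS but upstream of the listed locus. A uaTSS was called at ERBB3, which had the highest FPKM, and neither antisense TSS was called at EGFR. With 4 genes this is a description of each gene and no relation was tested.

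ERBB3 and ERBB2 were among the highest receptor tyrosine kinase transcripts. Of 58 receptor tyrosine kinase genes, 25 had an FPKM of at least 1, a share near the 46.9% of all genes and below the 59.9% of protein-coding genes. The median FPKM of the list was 0.541, close to the 0.528 of all genes and below the 3.99 of protein-coding genes. The 6 kinase genes listed at 0 compare with 7888 of all 26175 genes and 3130 of the 18012 protein-coding genes. ERBB3 ranked 1 of 58 and ERBB2 ranked 3 of 58. DDR1, a collagen receptor, came between them with an FPKM of 241. Below ERBB2, PTK7, a Wnt pathway pseudokinase, had an FPKM of 35.8, RYK, a Wnt receptor, 32.2, FGFR4 29.4 and EPHB3, an ephrin receptor, 24.0. EGFR ranked 23 of 58, between INSR, the insulin receptor, at an FPKM of 1.5 and EPHA10 at 1.10, and ERBB4 ranked 25 of 58, above FLT4 at 0.878.

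A gene TSS was called for 17 of the 54 receptor tyrosine kinases outside the family, against 51.0% of protein-coding genes, and 16 of those 17 had an FPKM of at least 1. The exception was AXL, with an FPKM of 0.0628. By nearest annotated start, ERBB2 and ERBB3 were the only genes among the 58 with more than 1 called gene TSS. For ERBB3 this count rests on the upstream call, which was assigned to the gene by distance alone and may not come from a search window of ERBB3. Among the 17 others, 5 had a uaTSS, against 53.1% of all gene TSSs, and 4 had a daTSS, a share near the 28.4% of all gene TSSs.

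**Figure D3:**
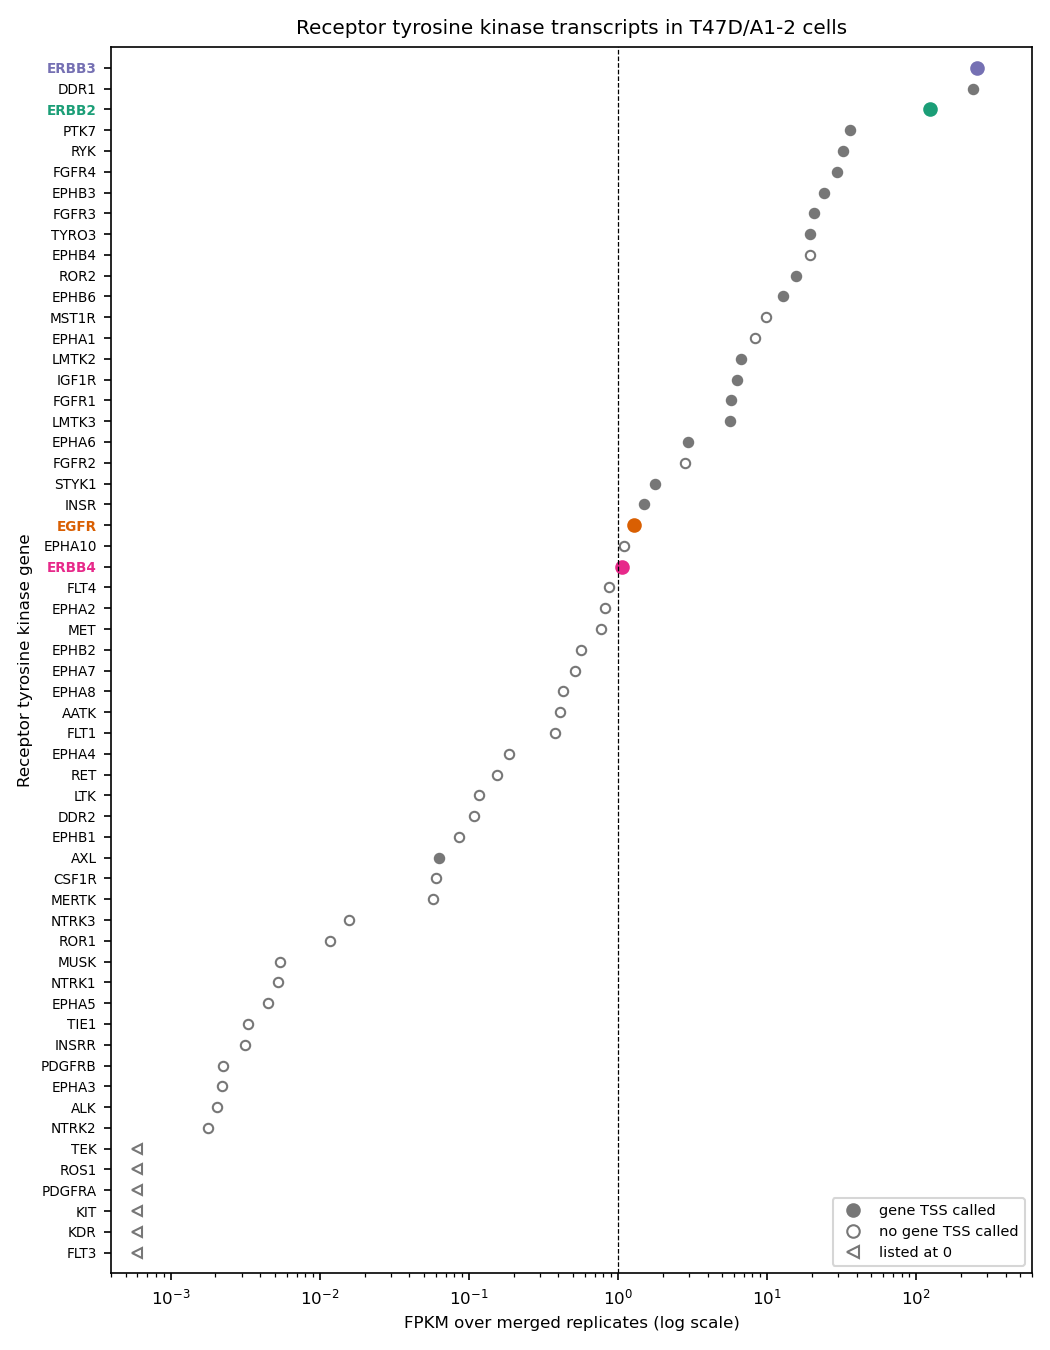
FPKM over merged replicates of 58 receptor tyrosine kinase genes, 1 per row in order of FPKM on a log axis, with the ERBB genes in color. Filled circles have a called gene TSS, open circles have none, triangles are listed at 0 and the dashed line is an FPKM of 1. ERBB3 at 259 and ERBB2 at 124 lie near the top with DDR1 at 241 between them, and EGFR and ERBB4 lie just above 1.

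Transcripts of most ligands were low, with a median FPKM of 0.193 against 0.528 over all genes and 3.99 over protein-coding genes. Of 11 ligand genes, 3 had an FPKM of at least 1, against 46.9% of all genes and 59.9% of protein-coding genes. The count became 6 at a minimum of 0.1, where 14928 of all 26175 genes and 12517 of 18012 protein-coding genes passed. It became 1 at a minimum of 5, where 9352 of all genes and 8552 of the protein-coding genes passed. The highest was TGFA, a ligand of EGFR, with an FPKM of 5.68, followed by EGF with 2.59 and AREG, amphiregulin, with 1.36. HBEGF and BTC, which bind both EGFR and ERBB4, had FPKM values of 0.326 and 0.227. EPGN and EREG, further ligands of the family, had FPKM values of 0.193 and 0.0727.

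The neuregulins, a group that includes the ligands of ERBB3, were lowest. Their FPKM values were 0.0311 for NRG4, 0.0118 for NRG3, 0.00845 for NRG1 and 0.00345 for NRG2, and no gene TSS was called for any of these genes. Gene TSSs were called for 4 of the 11 ligand genes, against 51.0% of protein-coding genes. These were TGFA, EGF, HBEGF and BTC, and not AREG. A daTSS was called at TGFA, EGF and BTC, against 28.4% of all gene TSSs. A uaTSS was called at HBEGF, against 53.1% of all gene TSSs. With 4 genes, no difference from these shares was tested. HBEGF and BTC had their calls at an FPKM below 1, where 7.47% of protein-coding genes had a called gene TSS.

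Of 5 metalloproteases that release membrane-bound ligands, 4 had an FPKM of at least 1, against 59.9% of protein-coding genes. ADAM15 had an FPKM of 180, ADAM9 104, ADAM10 31.0 and ADAM17, the main sheddase of TGFα and amphiregulin, 9.44. ADAM12 had an FPKM of 0.00384.

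The genes that act behind the receptors were mostly present. Of 30 adaptors and effectors, 28 had an FPKM of at least 1, against 59.9% of protein-coding genes, and 26 had a called gene TSS, against 51.0%. Their median FPKM was 27.4, against 3.99 over protein-coding genes. The highest were AKT1, a kinase downstream of PI3K, with an FPKM of 207, the adaptor SHC1 with 102 and the adaptor GRB2 with 77.0. PIK3R1, the PI3K subunit that binds ERBB3, had an FPKM of 32 and GRB7, an adaptor that binds ERBB2, 16.1. Low members were GAB2 with 3.72 and STAT5A with 0.847.

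Of 20 negative regulators, 19 had an FPKM of at least 1, against 59.9% of protein-coding genes, with a median of 8.02 against 3.99. The ubiquitin ligase STUB1 had an FPKM of 140 and the phosphatases PTPN1 and PTPN12 had values of 51.6 and 24.9. Among proteins that bind the receptors directly, RNF41, a ubiquitin ligase for ERBB3, had an FPKM of 22.2, LRIG1 19.5, ERRFI1, an inhibitor of the EGFR kinase, 11.9, and CBL, the ubiquitin ligase of EGFR, 5.67. The lowest were LRIG2 with 2.16, DUSP6 with 1.98 and SPRY4 with 0.0203. A gene TSS was called for 19 of the 20, all but SOCS5, against 51.0% of protein-coding genes.

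Of 15 chaperones and trafficking genes, 14 had an FPKM of at least 1, against 59.9% of protein-coding genes, with a median of 67.8 against 3.99. HSP90AA1 and HSP90AB1, chaperones on which ERBB2 depends, had FPKM values of 549 and 507, and their kinase cochaperone CDC37 had 134. AP2M1, a clathrin adaptor subunit, had an FPKM of 427. The lowest were USP8 with 20.2, EPS15 with 10.5 and MUC4, a mucin that binds ERBB2, with 0.105.

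Of 17 genes for factors linked to the ERBB promoters or receptors, 14 had an FPKM of at least 1, against 59.9% of protein-coding genes, with a median of 44.1 against 3.99. GATA3 and FOXA1, luminal transcription factors, had FPKM values of 360.4 and 113. TFAP2A and TFAP2C, AP-2 factors known to activate ERBB2, had FPKM values of 76.3 and 31.5, whereas TFAP2B had 0.00448. ELF3, an epithelial ETS factor, had an FPKM of 44.1. The other low members were ETV4, also an ETS factor, with 0.517 and PAX2 with 0.262.

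**Figure D4:**
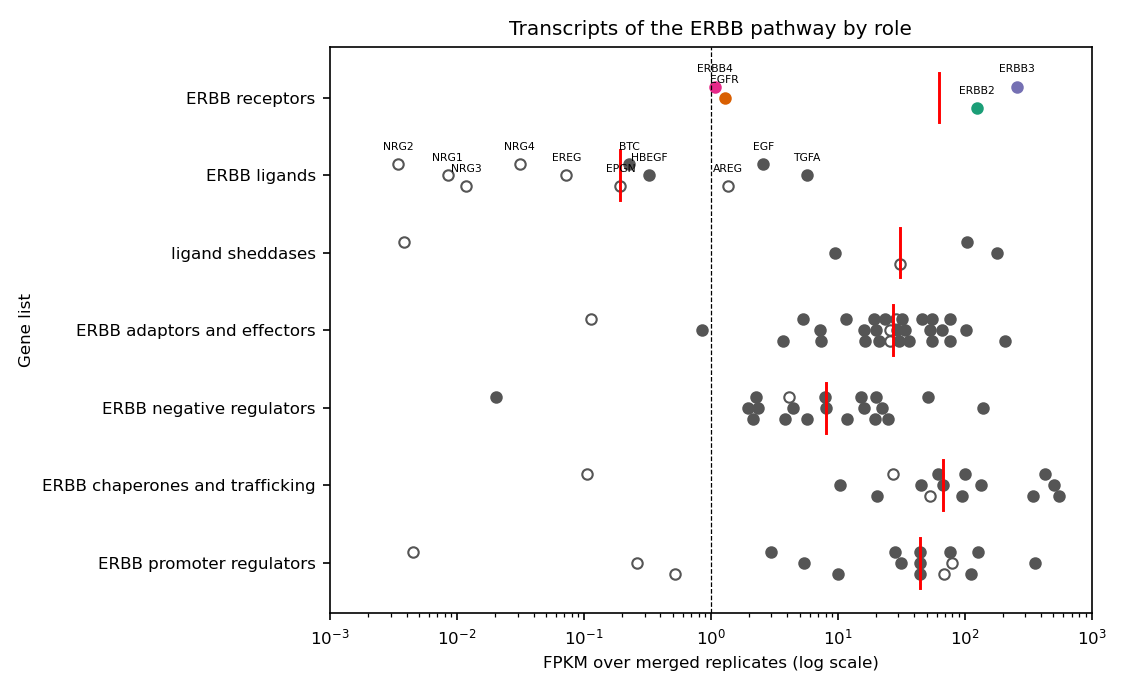
FPKM over merged replicates on a log axis for the ERBB receptors and for 6 lists of pathway genes by role, 1 circle per gene, filled where a gene TSS was called. Red bars are medians and the dashed line is an FPKM of 1. The median of the ligands, 0.193, is the lowest, and the highest neuregulin is NRG4 at 0.0311.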

How the data were processed

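Per the labels and the study's methods, the authors filtered Start-seq reads by quality, removed adapters with cutadapt 1.2.1, aligned reads to hg19 with Bowtie 0.12.8 and called gene TSSs in windows around RefSeq mRNA starts, merging overlapping windows of a gene, at a minimum of 5 reads. The deposited calls are single hg19 nucleotides whose score is 0 in every row, so no read counts were used. The deposited RNA-seq values are FPKM, which the authors estimated with Cufflinks 2.2.1 after TopHat2 2.0.4 alignment, Picard de-duplication and merging of replicates, with 0 columns of per-sample values.

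Here, gene TSSs were assigned to the closest same-strand GENCODE transcript start, at most 1000 nts away. Of the table's genes, 22337 matched the annotation by symbol, 18012 of them as protein-coding. GC content was read from GRCh37, and CpG islands were computed by the scoring of the UCSC track (over 200 bp, at least 50% GC, CpG ratio over 0.6). Percentiles share ties evenly. Python 3.11.15, numpy 2.4.6, pandas 2.3.3 and numba 0.67.0 were used. The island search, motif search and TSS assignment were tested on simulated data.

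The FAIRE-seq and MNase-seq libraries and the second Start-seq library were not used here. The members and gene lists were chosen with earlier results of these data known. The genes named are the family, all ligands, the kinases ranked beside the family, the 5 highest other kinases, and the 3 highest and 3 lowest of the other lists with direct binders of the receptors. AXL, SOCS5, ELF3, AP-2 factors and the middle ERBB2 neighbours were named outside this rule, after their values were seen, as were the motifs other than TATAW and the GC box and the shares for FPKM from 1 to below 2 and for divergent gene TSSs. Some genes under this rule and the sequence at the downstream ERBB3 call are not reported here. Protein identity was planned and not run, because protein sequences were not used here.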

Additional observations from a re-analysis of the deposited data

How the results depend on the processing

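Of 71 recomputed values, 39 kept the main value or a count within 1.5 times of it, 32 moved and 0 changed sign. The difference between ERBB3 and ERBB4 was 6.97 with a pseudocount of 1 and 7.91 with 0.01, against 7.79 in log2(FPKM + 0.1). Gene TSSs counted in the loci fell from 8 to 3 when loci were not widened, which by construction drops calls outside them. The ligands at or above the FPKM minimum were 6 at 0.1 and 1 at 5, against 3, and the negative regulators were 12 at a minimum of 5, against 19. Of 18012 protein-coding genes, 12517 passed at 0.1 and 8552 at 5. Joining antisense calls by position gave the same 5 calls as joining by identifier, PA2G4 included. That join looked for uaTSSs only upstream and daTSSs only downstream. It therefore could not pair the ERBB3 uaTSS with the upstream ERBB3 call, 870 nts before it. Under stricter island limits, 3 of the 6 family gene TSSs lay in an island, against 4. Family gene TSSs above the median GC content of all gene TSSs were 2 in 100 nts and 1 in 200 nts. No paired analysis was possible because no file gives values per replicate, and for the same reason no replicate could be left out. Depth is unknown, so values near an FPKM of 1, such as those of EGFR and ERBB4, have no stated precision.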

Other observations

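ERBB2 lies in a group of genes on chromosome 17 that is often amplified as a unit in breast cancer, and 15 of its listed neighbours were in the table. An FPKM of at least 1 was found for 10 of the 15 and a called gene TSS for 8 of the 15, both near the shares over protein-coding genes, 59.9% and 51.0%. Only MIEN1, a gene linked to cell migration, reached the level of ERBB2, with an FPKM of 134 against 124. MIEN1 is annotated on the minus strand and overlaps the end of the ERBB2 locus by 167 nts, and no gene TSS was called for it. The other neighbours ran from ORMDL3, a regulator of sphingolipid synthesis, with 47, through STARD3, a cholesterol transporter, with 25.4, GRB7 with 16.1 and PGAP3 with 12.3, to NEUROD2 and ZPBP2, which were listed at 0. IKZF3, a lymphoid transcription factor, had an FPKM of 0.00143. Copy number was not measured in the files used.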
